A study of Bos taurus and Bos indicus with 6 samples.

Results

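The RAB genes encode small GTPases of vesicle traffic, and 39 of them were measured here in the blood leukocytes of cattle of the Brahman and Holstein breeds. The members were all genes whose symbol is RAB followed by a number and at most 1 letter, on probe sets annotated to that gene alone. They make up 39 of the 9155 genes with a single symbol on the bovine array and have 48 probe sets in all, and each gene is described by its probe set with the highest mean over the 6 arrays. The RefSeq gene table of cattle lists 59 symbols of this form, and the other 20, among them RAB10, RAB20, RAB32, RAB38 and RAB43, were not analysed here.

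The series holds 1 Affymetrix array for each of 3 Holstein (Holstein-Friesian) and 3 Brahman animals, all female, 6 months old and under successive heavy infestation with the cattle tick Rhipicephalus microplus. The labels give no genotype beyond breed and no drug treatment. Both breeds were infested and no uninfested animals were analysed here, so differences present without ticks cannot be told apart from differences under ticks. The cells were the unsorted pellet left after red cell lysis of jugular blood. Values are log2 expression after RMA, a method that corrects background, normalises the arrays together and combines the probes of a probe set. In an unsorted pellet, fewer cells of a type and less RNA per cell cannot be told apart.

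A RAB protein works as a molecular switch: an exchange factor loads it with GTP, in which state it binds effectors on a membrane, and a GTPase-activating protein returns it to the GDP form. GDP dissociation inhibitors then draw the inactive protein off the membrane, where it is held by a lipid anchor. Different RAB proteins mark different compartments, and in leukocytes they are known for phagosome maturation, receptor recycling and the release of granules.

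Markers of the labelled cell source were read on the arrays, some at high and some at low values. The neutrophil gene S100A8 averaged 13.59, the B cell gene MS4A1 12.75, the T cell receptor gene CD3E 11.19 and the monocyte gene CD14 8.74 over the 6 arrays, and the globin gene HBB was still at 9.73. Other listed markers were dim. The neutrophil genes LTF and CAMP averaged 5.52 and 5.00, the monocyte gene ITGAM 5.89 and the erythroid gene AHSP 4.41. Of 10 measured T cell markers, 9 had higher values in Brahman. Their mean log2 level was 9.86 to 10.00 on the Holstein arrays and 10.21 to 10.39 on the Brahman arrays. The mean of 4 B cell genes also did not overlap, at 9.90 to 10.12 against 10.19 to 10.36, but the genes did not share this gap. BLK (difference 0.97) and CR2 (0.35) were higher in Brahman, while CD79A (-0.23) and MS4A1 (-0.14) were lower and overlapped. The mean of 6 NK and cytotoxic genes was 8.03 to 8.30 against 8.35 to 9.02, but this gap rests on GZMB (difference 2.51). Without GZMB, a choice made after seeing the data, the ranges overlapped, at 8.27 to 8.54 against 8.07 to 8.84, and PRF1 was lower in Brahman by its values (-0.60). The ranges of the neutrophil, monocyte, platelet and erythroid means overlapped between the breeds. Within the neutrophil and monocyte lists single genes went opposite ways. ALPL (1.42) and VCAN (0.92) were higher in Brahman and CD14 (-0.94) was lower, each without overlap. Every other member of these lists overlapped, with FCGR3A at -0.78. The hybridisation spike-in controls, bacterial and phage sequences added before hybridisation, ran the other way, at 9.94 to 10.38 in Holstein and 9.64 to 9.80 in Brahman. The part of these cell markers in the RAB values was not tested. Fits adjusted for the spike-in mean are given for some of the genes, among them every RAB gene whose side of the threshold they change. Since the spike-in means of the breeds do not overlap, the adjustment shares much of its variation with breed.

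In the fit on breed alone, the shares of RAB genes with an unadjusted p under 0.05 or without overlap lay near those of all genes. Differences are Brahman minus Holstein on the log2 scale throughout, so that a negative value is lower in Brahman. Of the 39 genes 26 had higher and 13 lower values in Brahman, with a median difference of 0.04. Of the 9155 genes 4423 had higher and 4732 lower values, with a median of -0.01. This split by direction was not tested. In limma's moderated test 0 of 39 passed an adjusted p of 0.05 over 24016 probe sets, a threshold that 0.137% of all probe sets passed. At an unadjusted p under 0.05 there were 6 RAB genes, 15.4% of the family, against 15.8% of all genes. RAB19 and RAB7A were the 2 with higher values, where 6.23% of all genes met this in that direction, and RAB28, RAB27B, RAB26 and RAB4B the 4 with lower values, where the background is 9.62%. The arrays of the breeds did not overlap for 10 RAB genes, 5 in each direction, against 22.7% of all genes, 10.4% higher and 12.2% lower. Both shares lie near the background. After adjustment for the spike-in mean, 7 RAB genes (17.9%) had an unadjusted p under 0.05 against 9.91% of all genes, and they were largely other genes: RAB19, RAB18 and RAB9B with higher values and RAB4B, RAB8A, RAB7B and RAB11B with lower values. RAB19 and RAB4B were the 2 in common with the unadjusted fit.

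**Figure D1:**
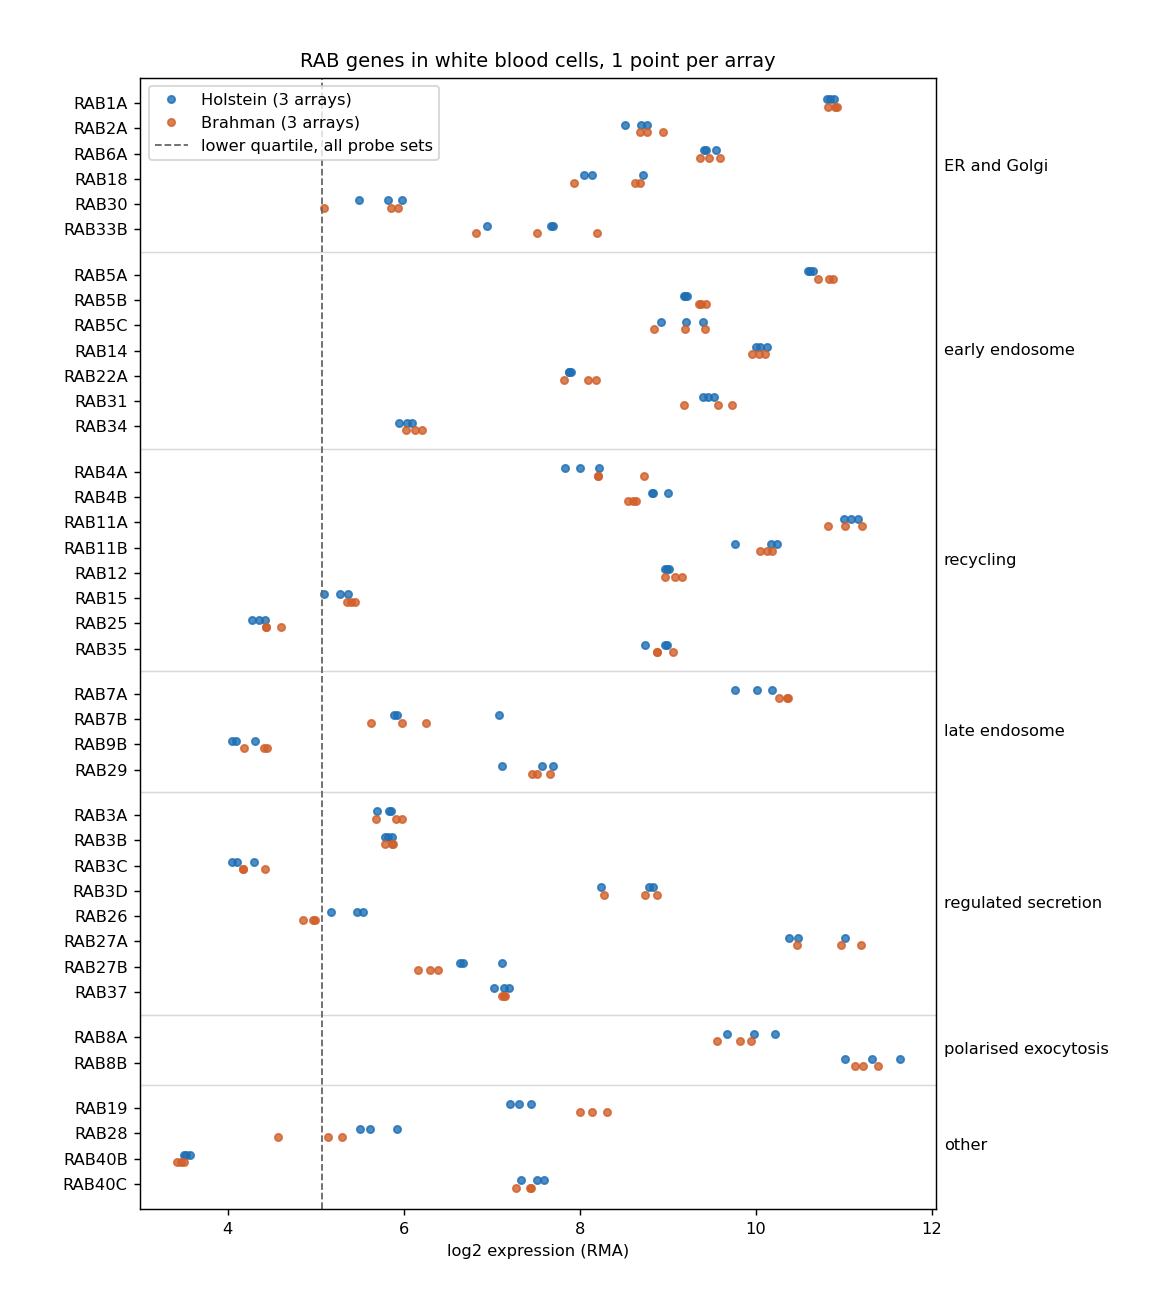
Log2 expression (RMA, horizontal axis) of the 39 RAB genes on 3 Holstein and 3 Brahman arrays, 1 point per array, grouped by the membrane step each RAB is known for. The dashed line is the lower quartile of all probe set means (5.08). RAB25, RAB9B, RAB3C and RAB40B lie below it, and RAB19 is the gene whose breeds are farthest apart.

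The mean level of a RAB probe set ran from 3.50 for RAB40B to 11.28 for RAB8B, with a median of 8.20. Probe sets differ in how strongly they bind, so these levels are not compared between genes. Probe sequences were not used here, so whether sequence differences between the breeds alter probe binding was not tested. The 4 genes with a mean under 5.08, the lower quartile over all probe sets, were RAB40B, RAB3C, RAB9B and RAB25, and their signal is not shown to be above background. The spread between animals of a breed, as a pooled SD, ranged from 0.034 for RAB5B to 0.574 for RAB33B, with a median of 0.139 against 0.147 over all genes. For 26 of the 39 genes the 95% confidence interval of the difference lay within 0.5 log2 units of 0 on both sides. That is 66.7%, against 65.8% of all genes. For 36 of the 39 it lay within 1 unit. Brahman 2 was the highest array for 12 of the 39 genes and Holstein 3 for 2, while Holstein 1 was the lowest for 9.

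**Figure D2:**
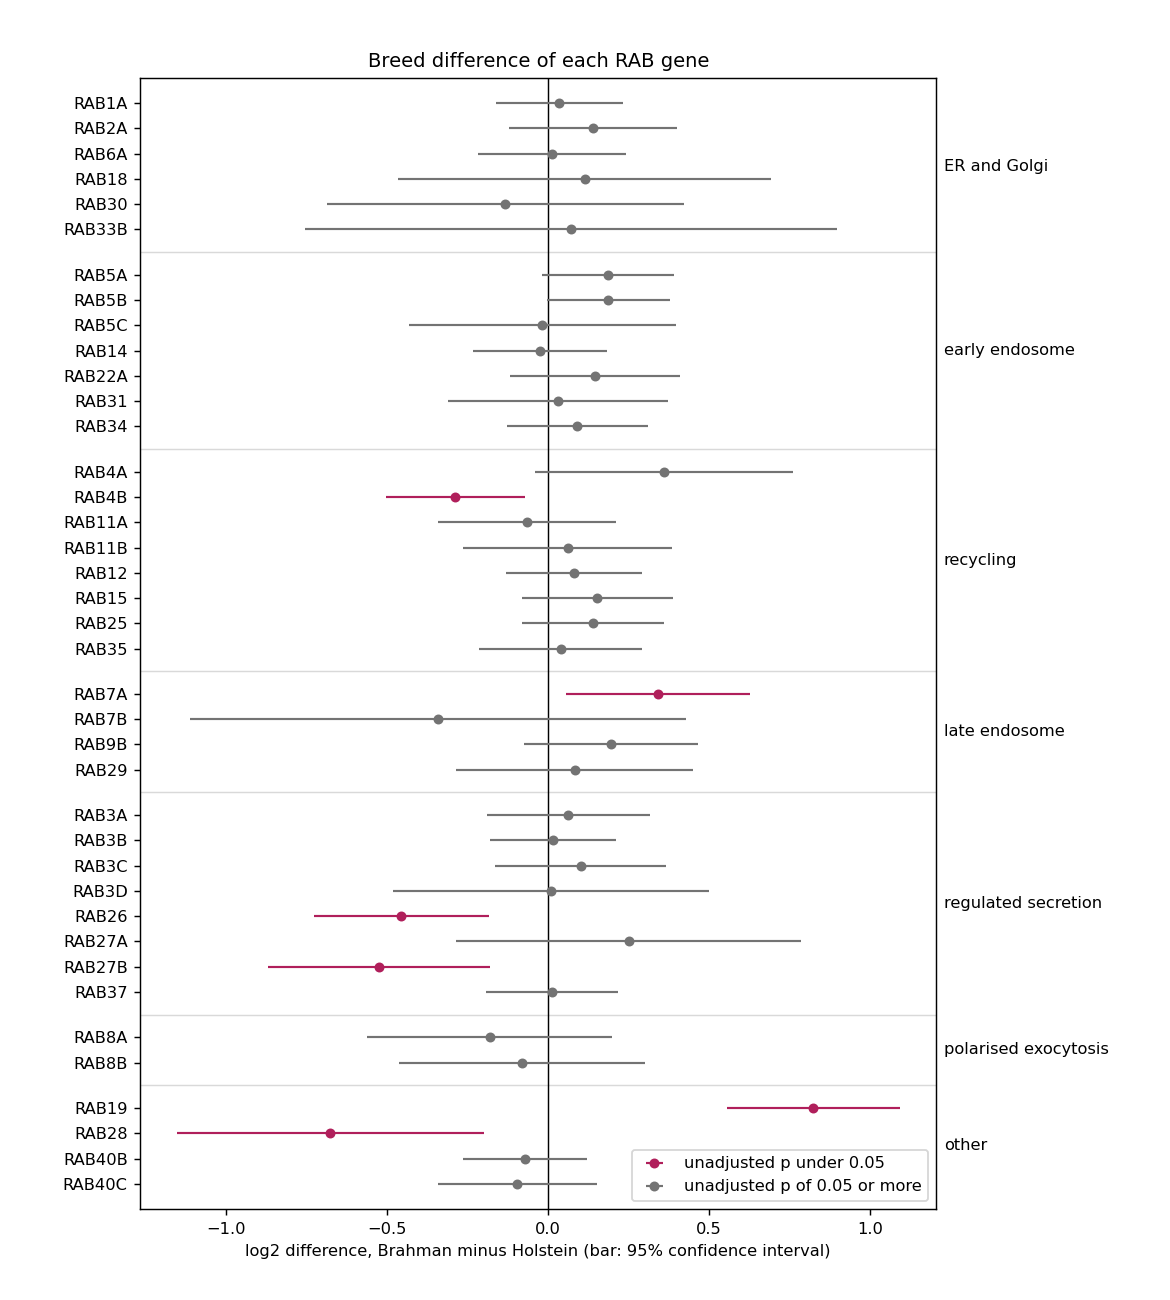
Log2 difference, Brahman minus Holstein, of each RAB gene (point) with its 95% confidence interval from limma (bar), grouped as in the plot of values. The 6 coloured genes have an unadjusted p under 0.05: RAB19 (0.82) and RAB7A (0.34) to the right of 0, and RAB4B (-0.29), RAB26 (-0.46), RAB27B (-0.53) and RAB28 (-0.68) to the left.

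RAB19, a less studied member of the family, showed the largest difference. Its values were 7.21, 7.31 and 7.45 on Holstein 1 to 3 and 7.999, 8.14 and 8.31 on Brahman 1 to 3. Every Brahman array was above every Holstein array. The means were 8.15 ± 0.16 in Brahman and 7.33 ± 0.12 in Holstein (SD, n = 3 each), a difference of 0.82 with an SE of 0.11 and a 95% interval of 0.56 to 1.09, or 1.77-fold on the linear scale. RAB19 had the smallest p of the family and ranked 17th of 9155 genes by p, and its adjusted p of 0.0687 missed the threshold. With each array left out in turn the difference stayed between 0.74 and 0.90, with unadjusted p-values from 0.000260 to 0.000794, and after adjustment for the spike-in mean it was 0.96 (unadjusted p = 0.00332).

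RAB28 is best known from the cilium and the photoreceptor. It read 5.62, 5.92 and 5.50 on the Holstein arrays and 5.31, 5.14 and 4.57 on the Brahman arrays. The breeds did not overlap, but Brahman 3 lay well below the other Brahman arrays and under the lower quartile of all probe set means. The difference was -0.68 (SE 0.20, 95% interval -1.15 to -0.20, adjusted p = 0.252), and it was -0.46 without Brahman 3 and -0.61 with the spike-in covariate (unadjusted p = 0.180). RAB40B and RAB40C carry a SOCS box, through which they recruit a ubiquitin ligase. RAB40B read 3.57, 3.53 and 3.50 in Holstein and 3.47, 3.42 and 3.50 in Brahman. Those arrays do not overlap, yet they are separated by less than the rounding shown, the difference was -0.07 (95% interval -0.26 to 0.12), and this was the dimmest member. RAB40C differed by -0.10 (95% interval -0.34 to 0.15).

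Among the RABs of regulated secretion, which act at granules and synaptic vesicles, 2 of 8 had an unadjusted p under 0.05. That is 25%, against 15.8% of all genes, and both were lower in Brahman. RAB27B, a regulator of granule and exosome release, read 6.67, 7.12 and 6.64 in Holstein against 6.39, 6.30 and 6.16 in Brahman. All 3 Brahman values lay below the Holstein values, and Holstein 2 was the highest array. The difference was -0.53 (SE 0.15, 95% interval -0.87 to -0.18, adjusted p = 0.226). It was -0.18 with the spike-in covariate (unadjusted p = 0.471) and ranged from -0.61 to -0.37 with each array left out.

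RAB26, a RAB of secretory granules, read 5.53, 5.47 and 5.18 in Holstein against 4.99, 4.86 and 4.97 in Brahman. The groups did not overlap, and the Brahman arrays lay under the lower quartile of all probe set means, where a lower level may not be seen. The difference was -0.46 (SE 0.12, 95% interval -0.73 to -0.18, adjusted p = 0.198). With the spike-in covariate it was the same size, -0.46, with an unadjusted p of 0.0804.

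RAB27A is the close relative of RAB27B, and its loss in humans causes Griscelli syndrome, in which cytotoxic lymphocytes fail to release their granules. It read 10.38, 11.02 and 10.49 in Holstein and 10.97, 11.20 and 10.47 in Brahman. The animals of each breed spread over more than the difference of 0.25 between the breeds (95% interval -0.29 to 0.79), which was 0.65 with the spike-in covariate (unadjusted p = 0.166). Within each array, the log2 value of RAB27A minus that of RAB27B was 3.71, 3.90 and 3.85 in Holstein and 4.58, 4.90 and 4.31 in Brahman, a change of 0.78 with no overlap. That pair was chosen after its values were seen and was not tested, and only the change between arrays is read, not the size of the gap.

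RAB37, a RAB of secretory granules in mast cells and neutrophils, varied little between animals. Its values were 7.03, 7.20 and 7.14 in Holstein and 7.11, 7.15 and 7.14 in Brahman. The Brahman values fell inside the Holstein range, and the difference of 0.01 had a 95% interval of -0.19 to 0.22. The RAB3 genes, which act in synaptic and endocrine exocytosis, gave differences of 0.06 for RAB3A, 0.02 for RAB3B, 0.10 for RAB3C and 0.01 for RAB3D. RAB3D, the form found in non-neuronal secretory cells, ranged most among them, from 8.24 to 8.88 over the 6 arrays, with Holstein 3 and Brahman 1 the low ones. RAB3C read 4.05, 4.30 and 4.11 in Holstein and 4.18, 4.42 and 4.18 in Brahman, a level not shown to be above background.

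Of the 4 RABs of late endosomes and lysosomes, RAB7A alone had an unadjusted p under 0.05 (25%, against 15.8% of all genes). RAB7A drives the fusion of late endosomes, phagosomes and autophagosomes with lysosomes. Its values were 10.19, 9.76 and 10.02 in Holstein and 10.26, 10.36 and 10.37 in Brahman. The lowest Brahman array stood just above the highest Holstein array, and Holstein 2 was the farthest below. The difference was 0.34 (SE 0.12, 95% interval 0.06 to 0.63, adjusted p = 0.303). Its second probe set gave 9.89, 9.49 and 10.04 in Holstein and 10.08, 10.29 and 10.11 in Brahman, a difference of 0.36 (unadjusted p = 0.0483), again with Holstein 2 lowest and no overlap. Without Holstein 2 the difference on the brighter probe set was 0.23 (unadjusted p = 0.0649), and with the spike-in covariate it was 0.01 (unadjusted p = 0.943).

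The arrays of the other late endosomal RABs overlapped between the breeds. RAB7B, which acts between endosomes and the Golgi, read 7.09 on Holstein 1 and between 5.63 and 6.26 on the other 5 arrays. Its difference of -0.34 (95% interval -1.11 to 0.43) became 0.05 without Holstein 1 and -1.27 with the spike-in covariate (unadjusted p = 0.0375). RAB29, which recruits the kinase LRRK2 to membranes, differed by 0.08 with values from 7.12 to 7.70. RAB9B, related to the RAB9A of mannose 6-phosphate receptor return, read 4.05, 4.31 and 4.10 in Holstein and 4.19, 4.42 and 4.45 in Brahman, again under the lower quartile of all probe set means. Its difference was 0.20, and 0.50 with the spike-in covariate (unadjusted p = 0.0243).

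Of the 7 RABs of early endosomes and uptake, 0 had an unadjusted p under 0.05, against 15.8% of all genes. RAB5A and RAB5B did not overlap between the breeds (28.6% of the class, against 22.7% of all genes). RAB5 proteins govern the fusion of early endosomes and the first stage of phagosomes. RAB5A read 10.59, 10.65 and 10.62 in Holstein and 10.71, 10.88 and 10.83 in Brahman, and RAB5B read 9.22, 9.19 and 9.20 against 9.36, 9.44 and 9.37. In both genes every Brahman array was higher, by a small margin. The difference was 0.19 for each (RAB5A 95% interval -0.02 to 0.39, adjusted p = 0.408, and RAB5B -0.003 to 0.38, adjusted p = 0.376). After a further quantile normalisation of the arrays the differences were 0.23 and 0.24 (unadjusted p = 0.0289 and 0.0225). With the arrays shifted to a common median instead, the differences were 0.16 and 0.16 (unadjusted p = 0.126 and 0.0893). A second, dimmer probe set of RAB5B differed by 0.11 and did overlap. RAB5C had no such gap: it read 9.40, 8.92 and 9.21 in Holstein and 9.20, 9.42 and 8.85 in Brahman, a difference of -0.02 (95% interval -0.43 to 0.40) that was -0.54 with the spike-in covariate (unadjusted p = 0.0699).

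RAB14 links endosomes with the Golgi and with young phagosomes. It read 10.01, 10.13 and 10.04 in Holstein and 9.96, 10.04 and 10.10 in Brahman, a difference of -0.02 with an interval of -0.23 to 0.18. The ranges of the breeds overlapped. RAB22A, a relative of RAB5 on endosomes, differed by 0.14, RAB31, which carries cargo from the Golgi to endosomes, by 0.03, and RAB34, a RAB of macropinosomes and cilia, by 0.09. All 7 intervals of this group lay within 0.5 log2 units of 0, as did 65.8% of those of all genes.

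Recycling RABs return receptors from endosomes to the surface, and 1 of 8 had an unadjusted p under 0.05 (12.5%, against 15.8% of all genes). RAB4B, of the fast recycling route, read 9.01, 8.83 and 8.83 in Holstein and 8.55, 8.64 and 8.61 in Brahman. All 3 Brahman arrays were lower, and the arrays of each breed lay close together. The difference was -0.29 (SE 0.09, 95% interval -0.50 to -0.07, adjusted p = 0.266). It was -0.41 with the spike-in covariate (unadjusted p = 0.0430) and -0.26 without Brahman 1 (unadjusted p = 0.0563).

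RAB4A, its close relative on the same route, pointed the other way without passing. It read 7.84, 8.22 and 8.01 in Holstein and 8.21, 8.73 and 8.20 in Brahman. Brahman 2 was the high array, and Holstein 2 reached the lower Brahman arrays. The difference was 0.36 (95% interval -0.04 to 0.76, adjusted p = 0.411), and 0.66 with the spike-in covariate (unadjusted p = 0.0734). Within each array RAB4A minus RAB4B was -1.17, -0.61 and -0.83 in Holstein and -0.34, 0.09 and -0.41 in Brahman. These values do not overlap and changed by 0.65, and this pair too was chosen after its values were seen and was not tested.

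RAB11A and RAB11B, of the slow recycling endosome, differed by -0.07 and 0.06, and RAB11B by -0.39 with the spike-in covariate (unadjusted p = 0.0476). RAB11A read 11.17, 11.01 and 11.08 in Holstein and 11.02, 11.21 and 10.83 in Brahman, where the Brahman animals spanned the Holstein range (95% interval of the difference -0.34 to 0.21). RAB12, which sends the transferrin receptor to degradation, differed by 0.08, RAB15 by 0.15 and RAB35, of a rapid route to the plasma membrane, by 0.04. RAB25, an epithelial relative of RAB11, read 4.42, 4.36 and 4.28 in Holstein and 4.44, 4.60 and 4.43 in Brahman. Its arrays just failed to overlap at a level under the lower quartile of all probe set means, with a difference of 0.14 (95% interval -0.08 to 0.36).

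The 6 RABs of the endoplasmic reticulum and Golgi included 0 with an unadjusted p under 0.05, against 15.8% of all genes. They included 0 whose breeds did not overlap, against 22.7% of all genes. A class of 6 genes is too small to set these counts apart from the background. RAB1A, needed for transport from the endoplasmic reticulum to the Golgi, read 10.85, 10.89 and 10.81 in Holstein and 10.82, 10.93 and 10.90 in Brahman. The 6 arrays lay within 0.119 of each other, and the difference of 0.04 had an interval of -0.16 to 0.23. RAB2A, of the same early secretory step, differed by 0.14 and RAB6A, of traffic within and from the Golgi, by 0.01. RAB33B, a Golgi RAB that binds the autophagy protein ATG16L1, varied most among animals of the whole family: it read 6.94, 7.67 and 7.70 in Holstein and 6.82, 7.51 and 8.20 in Brahman. Holstein 1 and Brahman 1 were the low arrays and Brahman 3 the highest, so the difference of 0.07 carried a wide interval of -0.76 to 0.90, and it was 1.02 with the spike-in covariate (unadjusted p = 0.108). RAB18, of lipid droplets and the endoplasmic reticulum, ranged from 7.94 to 8.72. Its difference was 0.11, and 0.91 with the spike-in covariate (unadjusted p = 0.0243). RAB30 of the Golgi ranged from 5.10 to 5.98 (difference -0.13, and 0.32 with the covariate).

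The RABs of polarised exocytosis, RAB8A and RAB8B, deliver vesicles to the plasma membrane and cilium. RAB8A read 10.22, 9.68 and 9.98 in Holstein and 9.82, 9.95 and 9.56 in Brahman, with a difference of -0.18 (95% interval -0.56 to 0.20) that was -0.72 with the spike-in covariate (unadjusted p = 0.00755). RAB8B read 11.32, 11.64 and 11.02 in Holstein and 11.22, 11.39 and 11.13 in Brahman, with a difference of -0.08 (95% interval -0.46 to 0.30). In both genes the Holstein animals spread more widely than the gap between the breeds.

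**Figure D3:**
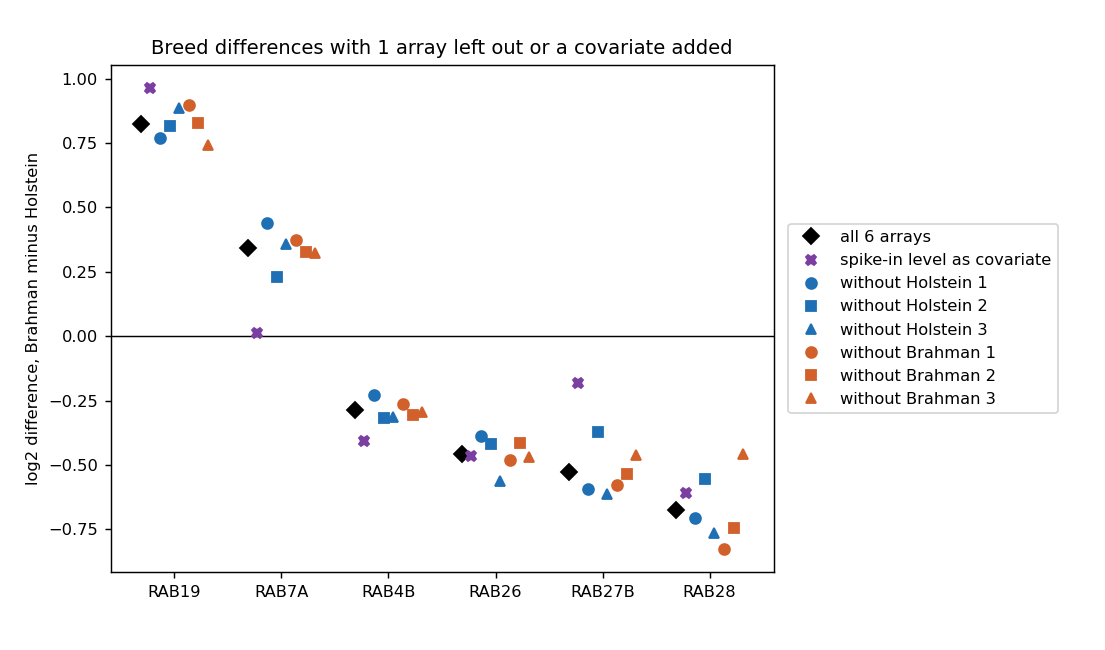
Log2 difference, Brahman minus Holstein (vertical axis), of the 6 RAB genes with an unadjusted p under 0.05: with all 6 arrays (black), adjusted for the spike-in mean as covariate (purple) and with each array left out (Holstein blue, Brahman orange). No value changed sign, RAB19 stayed between 0.74 and 0.96, and RAB7A came down to 0.01 with the covariate.

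For 9 RAB genes a second probe set allowed a check within the same arrays, and 8 of 9 gave a difference of the same sign. RAB7A was the 1 gene with an unadjusted p under 0.05 on both. The exception in sign was RAB8B, at -0.08 and 0.13. RAB6A disagreed in size: its brighter probe set differed by 0.01 (95% interval -0.22 to 0.24), whereas the dimmer one read 6.85, 6.61 and 6.98 in Holstein and 7.11, 7.32 and 7.07 in Brahman. On the dimmer probe set the breeds did not overlap, with a difference of 0.35 (95% interval 0.06 to 0.65, unadjusted p = 0.0259, adjusted p = 0.304). The probe sets of RAB8A both gave lower values in Brahman, at -0.18 and -0.22, and the second did not overlap, from 9.12 to 9.43 in Holstein and 8.99 to 9.07 in Brahman. RAB27A gave 0.25 and 0.08. For RAB22A, RAB35 and RAB3A the other probe set differed by 0.12, 0.08 and 0.07, all overlapping.

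**Figure D4:**
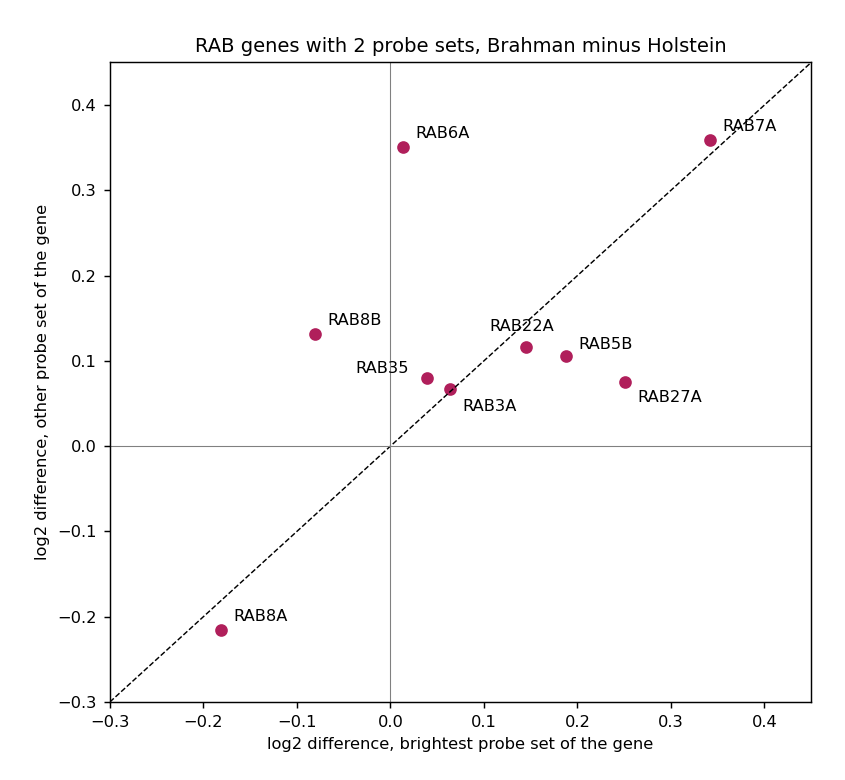
Log2 difference, Brahman minus Holstein, on the brightest probe set (horizontal axis) and on the other probe set (vertical axis) of the 9 RAB genes with 2 probe sets, 1 point per gene. The dashed line marks equal differences. RAB7A lies near it at 0.34 and 0.36, and RAB6A is off it at 0.01 and 0.35.

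The proteins that switch RABs on and off, and those that bind the active form, were listed by class, and 97 of 180 listed genes were measured. Of these 37 had higher and 60 lower values in Brahman (median -0.06), and 0 passed the adjusted threshold. At an unadjusted p under 0.05 there were 4 with higher and 14 with lower values, 4.12% and 14.4% of the class against the 6.23% and 9.62% of all genes. After adjustment for the spike-in mean the split turned to 9 higher and 4 lower, together 13.4% of the class against 9.91% of all genes. Shares of all genes by direction were not taken for that fit, so whether the turn is particular to the class was not tested. The total was 18 with all arrays (18.6% against 15.8% of all genes). With 1 array left out it was lowest at 12, without Holstein 1 (12.4% against 14.7%) or Holstein 2 (12.4% against 12.1%). It was highest at 20, without Holstein 3 (20.6% against 18.6%), so the class is given by its members. Of the partner genes named here, RABGEF1, VPS39 and TBC1D4 kept an unadjusted p under 0.05 with the covariate and the others did not.

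Among 27 exchange factors 1 was higher and 3 were lower at an unadjusted p under 0.05, 14.8% of the class against 15.8% of all genes. RABGEF1, also called Rabex-5, loads RAB5 with GTP. It read 8.96, 8.73 and 8.81 in Holstein and 8.10, 8.47 and 7.82 in Brahman. All Brahman arrays lay below the Holstein arrays, with a difference of -0.71 (SE 0.17, adjusted p = 0.177) that was -0.99 with the spike-in covariate and -0.43 with all probe sets of the gene averaged. HPS4, which with HPS1 forms the exchange factor of RAB32 and RAB38, read 8.93, 9.45 and 9.50 in Holstein and 8.60, 8.86 and 8.33 in Brahman, a difference of -0.69 without overlap (SE 0.19, adjusted p = 0.214) that was -0.41 with the covariate (unadjusted p = 0.282) and -0.39 over all its probe sets. The TRAPP subunit gene TRAPPC1 differed by -0.36. RAB3IP, or Rabin8, an exchange factor of RAB8, was the higher gene, at 0.61 (SE 0.20, adjusted p = 0.274).

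Of 23 GTPase-activating proteins 2 were higher and 4 lower at an unadjusted p under 0.05, 26.1% of the class against 15.8% of all genes. TBC1D8, which carries the TBC domain of RAB inactivators, had the smallest p of the partner genes. It read 10.04, 10.15 and 9.74 in Holstein and 9.15, 8.92 and 9.33 in Brahman. The breeds were apart by more than the range within either, and the difference of -0.84 (SE 0.15, adjusted p = 0.106) ranged from -0.96 to -0.74 with each array left out. With the spike-in covariate it was -0.64 (unadjusted p = 0.0546). TBC1D7, known mainly as a subunit of the TSC complex that restrains mTORC1, differed by -0.42 and TBC1D12 by -0.38 at a level under the lower quartile of all probe set means. RAB3GAP2, a subunit of the inactivator of RAB3 and also part of an exchange factor of RAB18, was higher by 0.28, and TBC1D4, the Akt substrate of glucose transporter traffic, by 0.31. Averaged over all probe sets of the gene, TBC1D4 was at 0.11 (unadjusted p = 0.288) and TBC1D12 at -0.17 (unadjusted p = 0.121).

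Of 43 effectors 1 was higher and 7 lower at an unadjusted p under 0.05, 18.6% of the class against 15.8% of all genes. RABEP1, or rabaptin-5, binds active RAB5 and RABGEF1. It read 8.25, 8.51 and 8.07 in Holstein and 7.69, 8.04 and 7.92 in Brahman, a difference of -0.39 with a gap of hundredths between the breeds (SE 0.14, adjusted p = 0.313) that was -0.07 with the spike-in covariate. VPS39 and VPS11, subunits of the HOPS tether that works with RAB7, differed by -0.42 and -0.34, and VPS26A, a subunit of the retromer that RAB7 recruits to endosomes, by -0.26. The RAB11 effector gene WDR44 differed by -0.51 and the RAB8 effector gene EHBP1L1 by -0.44. RUFY3 was the higher effector, at 0.36. Over all probe sets of the gene, VPS26A was at -0.08 (unadjusted p = 0.585) and RUFY3 at 0.17 (unadjusted p = 0.127). Of the 4 loading and recycling genes 0 had an unadjusted p under 0.05, against 15.8% of all genes. GDI2, which extracts RABs from membranes, differed by 0.08 at 11.70 to 11.86 over the 6 arrays.

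**Figure D5:**
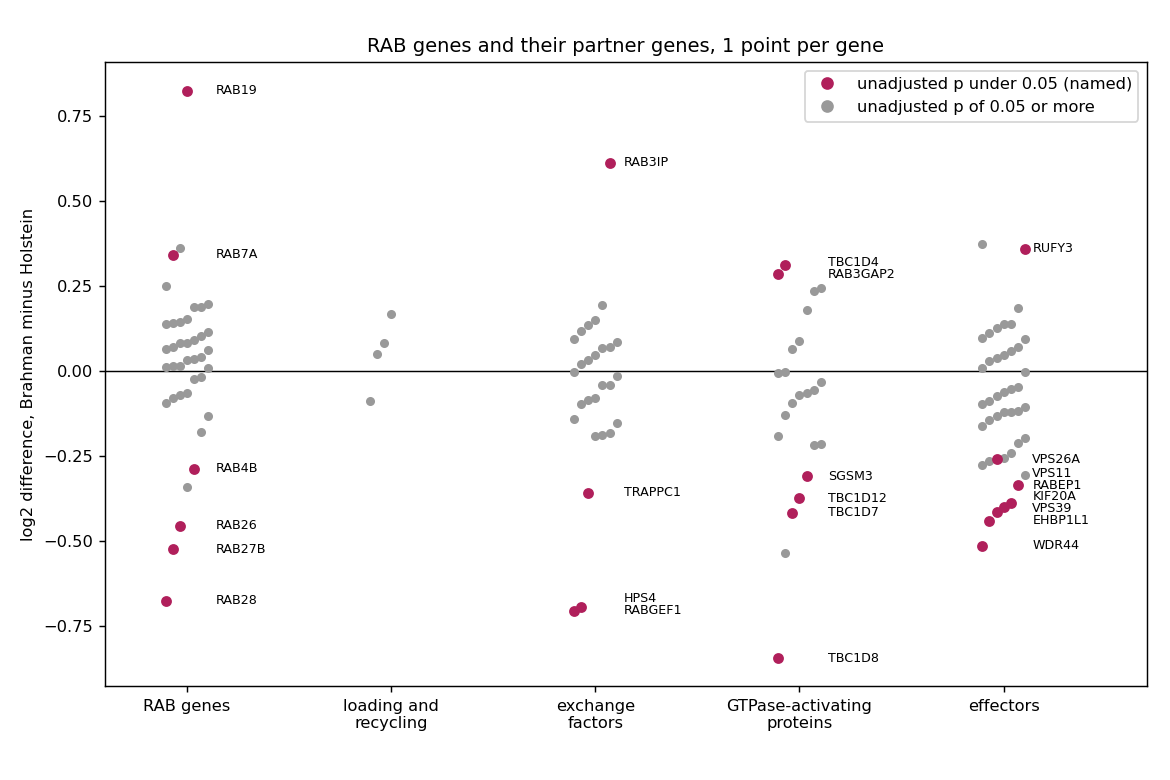
Log2 difference, Brahman minus Holstein (vertical axis), of the 39 RAB genes and of 97 partner genes in 4 classes, 1 point per gene, with genes of unadjusted p under 0.05 coloured and named. RAB19 (0.82) is the highest point and TBC1D8 (-0.84) the lowest, and the named effectors other than RUFY3 lie below 0.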

How the data were processed

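The deposited table holds log2 expression per probe set for 6 arrays, which the authors computed by RMA according to the deposited labels, per the submitters' processing notes; the version and a genome build are not given in the sources used here. It has 24128 probe sets from 2.89 to 14.45, of which 112 controls were left out of the tests. No scanner intensities or detection calls were used, and having 3 arrays per breed limits how precise a difference can be. Symbols are those of the array's GEO platform annotation (1 symbol for 13292 probe sets, several for 86, none for 10638). All 39 RAB genes matched the RefSeq table of ARS-UCD2.0 by Entrez identifier with the same symbol. Probe sets shared with another gene, such as those of RAB9A, were not used.

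Breed was fitted as the only term over all 24016 probe sets with limma 3.58.1 in R 4.3.3 (lmFit, eBayes), two-sided, with Benjamini-Hochberg adjustment across all of them. SE is the moderated standard error. The fit was tested on simulated data. The members, the lists of partner genes and cell markers, and the rule for named genes were chosen with earlier results of these data known. That rule names every RAB gene, gives array values for those with an unadjusted p under 0.05, without overlap, brightest, dimmest or of known leukocyte role, and names up to 12 partner genes by smallest p and 5 others. Alternatives were a further quantile normalisation, a shift of the arrays to a common median, array weights, a trended robust prior and leaving out dim probe sets. Others were a block for the replicate number and the mean of 18 spike-in probe sets as a covariate. The mean of all probe sets of a gene was also used, and each array was left out in turn.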

Additional observations from a re-analysis of the deposited data

How the results depend on the processing

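With 14 alternatives, 0 RAB genes passed the adjusted threshold in any of them, and the count at an unadjusted p under 0.05 ran from 4 of 29 (13.8%, against 16.1% of all genes), with only probe sets of mean 6 or more, to 8 of 39 (20.5%, against 14.9%), with a further quantile normalisation. RAB19 kept an unadjusted p under 0.05 in all 14, with adjusted p-values from 0.0600 to 0.377. RAB26 and RAB28 kept it in 12 of 13, RAB27B and RAB4B in 13 of 14 and RAB7A in 10 of 14. RAB26, RAB27B, RAB28 and RAB7A lost it with the spike-in covariate, RAB4B without Brahman 1, and RAB7A also without Holstein 2, Brahman 2 or Brahman 3. RAB18, RAB7B, RAB8A, RAB9B and RAB11B gained it with the spike-in covariate. RAB5A and RAB5B gained it with the further quantile normalisation, and RAB22A and RAB4A each with 1 array left out. The count of RAB genes without overlap was 6 with the filter on dim probe sets, which leaves 29 of the 39 genes (24.0% of all genes do not overlap there). With the arrays shifted to a common median it was 8 of the 39, where 22.6% of all genes do not overlap. It was 10 to 15 with 1 array left out, where 30.3% to 37.3% of all genes do not overlap. RAB11B reversed with the spike-in covariate, at -0.39 (unadjusted p = 0.0476). RAB8B (0.22), RAB14 (0.12), RAB30 (0.32), RAB15 (-0.04) and RAB35 (-0.24) also changed sign with it, each with an unadjusted p above 0.05. The cause was not tested. The replicate numbers of the breeds share only a number: deviations of same-numbered arrays correlated at 0.11, -0.04 and -0.07. With the replicate block 7 RAB genes (17.9%) had an unadjusted p under 0.05, against 16.3% of all genes, RAB4A being the added one. In that fit 10 probe sets were called, against 33 without the block. The partner genes at an unadjusted p under 0.05 numbered 12 to 20 with 1 array left out. That is 12.4% to 20.6% of the class, against 11.4% to 18.6% of all genes. At levels near the lower quartile, as for RAB26 and RAB28, a lower value may not be seen.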
